A study of Rattus norvegicus with 20 samples.

Results

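The interleukin 6 (IL-6) cytokine family signals through gp130, the receptor chain encoded by Il6st. The 10 genes described here are the cytokines Il6, Il11 and Lif, the shared chain Il6st, the cytokine-specific receptor chains Il6r, Il11ra1, Lifr and Osmr, the feedback inhibitor Socs3 and the transcription factor Stat3. They were found by symbol in a table of gene counts with 17337 genes, which listed all 10. The low-count filter kept 8320 genes for testing, among them Il6, Il11, Il6st, Il11ra1 and Stat3, which makes 5 of the 10. Lif, Il6r, Lifr, Osmr and Socs3 did not pass it and are given as counts.

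The cells were primary type II pneumocytes of Sprague-Dawley rats, grown for 4 days on fibronectin-coated silastic until they formed monolayers with a type I-like character. Each library pooled 4 monolayers of 1 animal, and each of the 4 groups held 5 libraries. Unstretched controls (NS) were kept in 0.01% DMSO for 24 h, and stretched cells (S) had 18 h of the same DMSO and were then stretched cyclically and biaxially for 6 h, to a 25% larger area 15 times per min. Stretched cells with inhibitor (S_PI) had 18 h of 1 µM GSK2606414, a small-molecule inhibitor of the stress kinase PERK, before the same stretch. Unstretched cells with inhibitor (NS_PI) had 1 µM of it for 18 h by the series text and 24 h by the treatment protocol. No DMSO is stated for either inhibitor group, and neither age nor sex is stated for the animals. Sample numbers 1 to 5 recur in the 4 groups and were read as animals.

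In textbook outline, IL-6 and IL-11 each bind their own alpha chain, IL-6R or IL-11R alpha, and the pair then recruits gp130. LIF joins gp130 to LIFR, and oncostatin M can join it to OSMR. JAK kinases bound to gp130 phosphorylate STAT3, which enters the nucleus, and SOCS3, itself a STAT3 target, binds gp130 and shuts the signal down. In the lung the family is known for roles in epithelial survival after injury, in acute-phase inflammation and, for IL-11, in fibrosis.

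Libraries held 999209 to 3131541 gene counts. Levels are CPM, the counts of a gene relative to the library total, scaled by the trimmed mean of M-values (TMM). The 3′ end kit makes 1 fragment per transcript, so levels of different genes are set side by side without a length correction. The gene annotation used for counting is not given, so an order of genes is one of counts and not of transcript abundance. A count of 0 allows up to 3 counts, which is 1.07 to 3.05 CPM in these libraries and covers counting error only. The labelled cell type was checked by markers: Cdh1 averaged 5150 CPM, Epcam 1909, and the type I markers Pdpn and Ager 1827 and 499.7. The type I markers Aqp5 and Rtkn2 averaged 3.03 and 0.491 CPM. Of the type II markers, Lamp3 averaged 123 CPM, and Sftpc, Sftpb, Sftpa1 and Slc34a2 averaged 11.9, 7.33, 12.2 and 1.08 CPM. Markers of other cells were present. Among fibroblast and smooth muscle markers, Col1a1 averaged 5490 CPM, Acta2 1062 and Col3a1 553. Others of that list were low, with Col1a2 at 1.63, Lum at 3.00, Pdgfra at 3.90 and Dcn at 13.5 CPM. The leukocyte marker Ptprc averaged 100.01 CPM, and the endothelial marker Cdh5 was at 0 in all 20 libraries. In such bulk samples, fewer cells of a type and less RNA per cell cannot be told apart.

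Because the results turn on the cytokines Il11 and Il6, their promoters are shown, 250 bases before to 50 after the start of the gene, from RefSeq on build GRCr8. The Il11 stretch is chr1:78098372-78098671 on the plus strand, and the Il6 stretch is chr4:5894526-5894825 on the minus strand. Capitals mark the matches to the motifs searched.
Il11: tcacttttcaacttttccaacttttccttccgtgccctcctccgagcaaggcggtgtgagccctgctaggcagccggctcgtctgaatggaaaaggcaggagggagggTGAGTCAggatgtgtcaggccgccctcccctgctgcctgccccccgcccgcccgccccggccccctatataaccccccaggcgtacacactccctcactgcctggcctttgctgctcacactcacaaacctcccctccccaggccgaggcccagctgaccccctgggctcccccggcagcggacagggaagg
Il6: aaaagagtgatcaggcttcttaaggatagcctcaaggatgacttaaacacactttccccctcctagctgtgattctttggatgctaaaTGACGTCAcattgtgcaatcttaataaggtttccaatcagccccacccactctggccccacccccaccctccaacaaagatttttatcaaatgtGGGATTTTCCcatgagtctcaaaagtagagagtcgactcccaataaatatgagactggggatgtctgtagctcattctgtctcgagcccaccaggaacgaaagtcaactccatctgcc

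Both strands were searched for the STAT motif TTCNNNGAA, the AP-1 motif TGANTCA, the CRE motif TGACGTCA and an NF-kB motif. The Il11 stretch held 1 match, the AP-1 letters TGAGTCA at -142 to -136 from the start. The Il6 stretch held the CRE letters at -162 to -155 and the NF-kB letters GGGATTTTCC at -68 to -59, with no overlap between them. Promoters of 8 of the 10 genes were in the table, and of the other six only Osmr held a match, the AP-1 letters TGATTCA at -33 to -27. The STAT letters were in none of the 8. Of 33469 promoters of this length, 8.87% held the STAT letters, 7.33% the AP-1, 1.83% the CRE and 1.53% the NF-kB letters. These matches are letters in a window and were not tested for binding.

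Stretch raised the cytokine Il11 in every animal, with and without the inhibitor, and raised Il6 by a smaller fitted fold. Il6 passed the low-count filter only with its stretched libraries included, so its rise is a description. Without inhibitor, 2 of the 5 tested genes rose, both cytokines, and 0 fell, where 24.9% of all tested genes changed (12.5% rose and 12.4% fell). With inhibitor the same pair rose and the IL-11 receptor chain Il11ra1 fell, where 30.5% of all tested genes changed (15.2% rose and 15.3% fell). The median log2 change of the 5 genes was 0.15 and 0.32, beside -0.013 and -0.020 over all tested genes. A change is called at an adjusted p under 0.05 from edgeR's quasi-likelihood test with the animal as a block, Benjamini-Hochberg adjusted over all 8320 genes, and ± on a log2 change is its standard error.

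Il11, which encodes a secreted cytokine, stood at 5.54, 17.8, 18.0, 63.6 and 72.7 CPM in unstretched animals 1 to 5. After stretch the same animals had 43.2, 103, 136, 268 and 337 CPM. Animals 4 and 5 were the highest in both groups, and the groups overlapped, since animal 1 after stretch lay below animals 4 and 5 before it. The mean went from 35.5 ± 30.4 to 177 ± 121 CPM (SD, n = 5), and the fitted change was 2.45 ± 0.21 on the log2 scale, or 5.47-fold (edgeR adjusted p = 2.12e-07, higher in 5 of 5 animals). Within single animals the log2 difference ran from 2.06 to 2.84.

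With the inhibitor, unstretched Il11 was 8.38, 14.2, 14.2, 54.3 and 57.9 CPM, and stretched Il11 was 79.1, 113, 87.5, 379 and 234 CPM. Here every stretched library lay above every unstretched one. Il11 was the 1 gene of the 5 tested whose groups did not overlap, where 13.8% of all tested genes did not. Without inhibitor this held for 0 of the 5, where it held for 7.34% of all tested genes. The fitted change with inhibitor was 2.73 ± 0.22, or 6.64-fold (edgeR adjusted p = 2.87e-08, higher in 5 of 5 animals).

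Il6, the family's founding cytokine, had few counts. It passed the low-count filter only with its stretched libraries included, so its rises with and without inhibitor are given as descriptions. Unstretched animals 1 to 5 had 1.85, 3.45, 3.10, 9.43 and 27.7 CPM, from 4 to 51 counts each, and stretched animals 11.6, 5.71, 8.03, 14.2 and 37.3 CPM, from 13 to 58 counts. Animal 5 was the highest in both groups and the groups overlapped widely, although each animal was higher after stretch than before. The fitted change was 0.95 ± 0.31, or 1.93-fold (edgeR adjusted p = 0.0303, higher in 5 of 5 animals). That call was lost without the animal block (adjusted p = 0.573), with only the compared groups fitted (0.0642) and without animal 1, 2 or 3 (0.114, 0.0569 and 0.0733), and its adjusted p ran from 0.0193 to 0.573 over all alternatives.

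With inhibitor, Il6 was 2.79, 1.25, 3.69, 12.1 and 10.4 CPM unstretched and 13.8, 7.93, 5.83, 32.8 and 41.6 CPM stretched. Animals 4 and 5 again stood highest after stretch, and the groups overlapped. The rise was 1.71 ± 0.32, or 3.28-fold (edgeR adjusted p = 0.00047, higher in 5 of 5 animals). Without the animal block it was not called (adjusted p = 0.122).

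**Figure D1:**
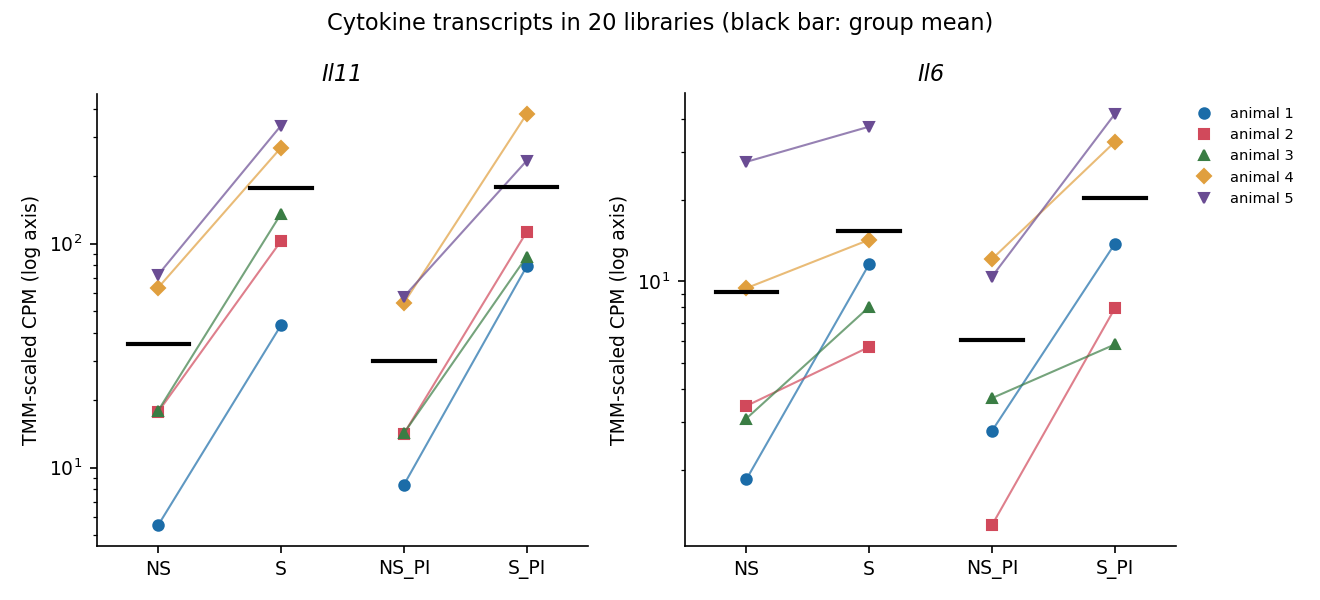
Level of Il11 and Il6 in each of the 20 libraries, as TMM-scaled CPM on a log axis, by group, with 1 marker per animal, a line joining the unstretched and stretched library of an animal, and a black bar at the group mean. Il11 rose from 5.54 to 72.7 CPM in unstretched cells to 43.2 to 337 CPM in stretched cells, and the markers of animals 4 and 5 lie above the others in each group.

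Lif, the third cytokine, was close to absent from the counts: 7 counts in all, spread over 6 libraries. None of its libraries passed 3 counts, so no change could be described.

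The rest of the family's ligands gave a mixed picture. Of 7 further ligands and ligand subunits, 6 were listed and 5 tested: 1 rose and 1 fell without inhibitor, where 24.9% of all tested genes changed, and 2 rose with it, where 30.5% changed. Cntf, a ciliary neurotrophic factor, went from a mean of 3.43 to 9.12 CPM without inhibitor (1.39 ± 0.33, adjusted p = 0.00486) and from 2.73 to 10.2 CPM with it (1.82 ± 0.34, adjusted p = 0.000408). The Cntf calls held in the 11 and 12 alternatives, of 13, in which the gene was tested. Its unstretched libraries had only 4 to 10 counts (NS) and 1 to 10 (NS_PI). Cntf thus passed the low-count filter through its stretched libraries, and its rise is given as a description. Clcf1, a cytokine of the same receptor group, went from 24.5 to 47.4 CPM (1.02 ± 0.38, adjusted p = 0.0532) and from 17.6 to 45.7 CPM with inhibitor, where it rose by 1.45 ± 0.39 (adjusted p = 0.00773, but 0.0576 without the block). Ctf1, cardiotrophin 1, fell without inhibitor from 5.11 to 1.87 CPM (-1.43 ± 0.41, adjusted p = 0.0153, but 0.0911 without the block). It had 1 to 6 counts per library in S. Ctf1 passed the low-count filter only with its unstretched libraries included, and its fall is given as a description. Osm, which encodes oncostatin M, was listed at 0 in all 20 libraries.

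Counts of 7 ligands (Il6, Il11, Lif, Osm, Cntf, Ctf1 and Clcf1) were summed in each library, giving 55 to 653 counts. Il11 made up 40.2 ± 12.6% of them in unstretched and 64.4 ± 17.2% in stretched cells (mean ± SD, n = 5), and 41.6 ± 16.1% and 63.3 ± 15.0% with inhibitor. Its share was higher with stretch in 5 of 5 animals in both settings, by 24.2 and 21.7 percentage points on average. The share of Clcf1 was 33.2 ± 8.46% and 23.3 ± 13.7% without inhibitor. Il6 held 9.53 ± 4.89% and 6.35 ± 3.89%. These shares are descriptions, since the ligands were chosen with the results known.

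**Figure D2:**
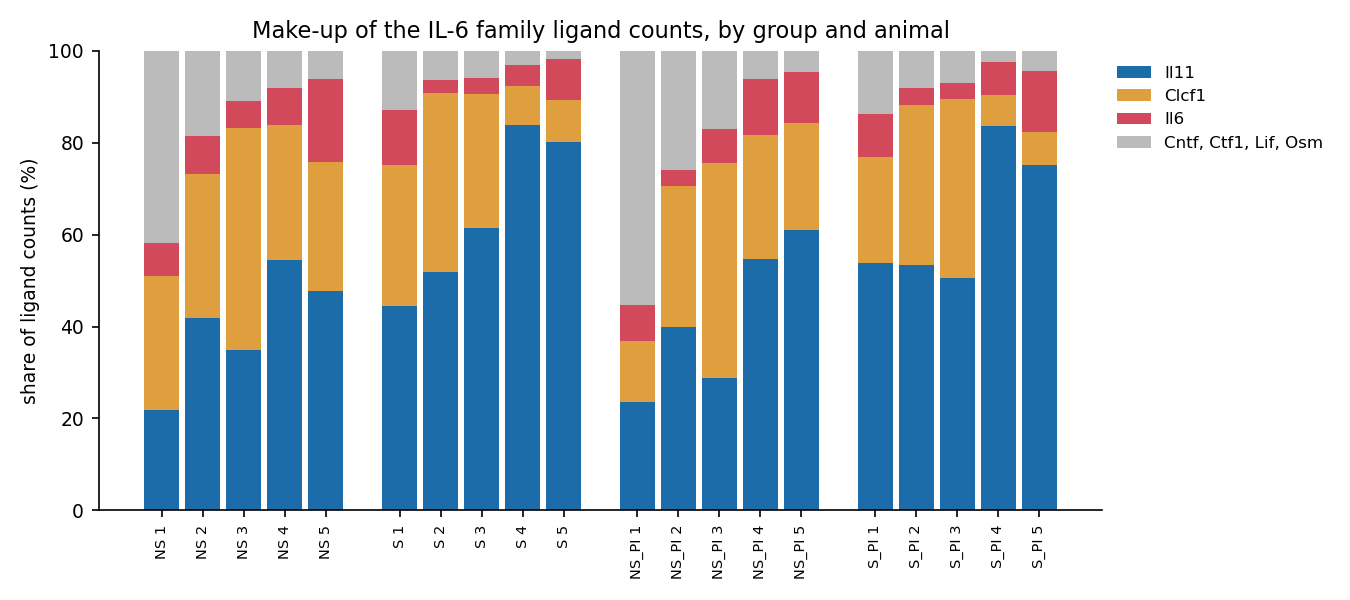
Share of the summed ligand counts held by Il11, Clcf1, Il6 and the remaining ligands together, in percent, with 1 stacked bar per library, ordered by group and animal. Il11 averages 40.2% in NS and 64.4% in S, and is above 80% in the stretched libraries of animals 4 and 5 without inhibitor.

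Among the receptors, gp130 itself had 205 to 704 counts per library and was not called in either stretch comparison. The alpha chain for IL-11 fell with stretch in the presence of the inhibitor. Il6st stood at 227, 181, 213, 174 and 171 CPM in unstretched animals 1 to 5 and at 216, 251, 224, 221 and 159 CPM after stretch. The ranges overlapped, 3 of 5 animals were higher, and the change was 0.15 ± 0.13 with a 95% interval of -0.12 to 0.42 (edgeR adjusted p = 0.428). With inhibitor it was 255, 168, 155, 174 and 152 CPM unstretched and 234, 253, 226, 211 and 196 CPM stretched. Animal 1 was the exception in being lower after stretch, and the other four were higher. That difference was 0.32 ± 0.13 (adjusted p = 0.0654), and it passed the threshold with DESeq2 (0.0469) and without animal 1 (0.0118).

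Il11ra1, the ligand-binding chain for IL-11, was 132, 133, 183, 118 and 59.1 CPM in unstretched cells and 108, 163, 122, 65.1 and 43.8 CPM after stretch. Animal 5 was the lowest in both, the groups overlapped, and 4 of 5 animals were lower, with a change of -0.39 ± 0.20 that was not called (edgeR adjusted p = 0.169, 95% interval -0.80 to 0.034). With inhibitor the unstretched values were 223, 218, 144, 80.4 and 109 CPM and the stretched ones 72.2, 156, 117, 51.1 and 51.1 CPM. All 5 animals were lower after stretch, although the groups overlapped, and Il11ra1 fell by 0.84 ± 0.20 on the log2 scale (edgeR adjusted p = 0.00381). The call was lost without the animal block (adjusted p = 0.175).

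The alpha chain for IL-6 had few counts. Il6r had 3 to 12 counts in each of the 20 libraries and group means of 3.37 CPM (NS), 4.58 CPM (S), 2.54 CPM (NS_PI) and 4.81 CPM (S_PI). When genes were not filtered, its changes with stretch were 0.34 ± 0.42 and, with inhibitor, 0.82 ± 0.44 (edgeR adjusted p = 0.669 and 0.209). Lifr, the chain for LIF, had 6 counts in 5 libraries and cannot be described further.

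Osmr, the chain for oncostatin M, had 0 to 9 counts per library, 68 in all. Unstretched animals 1 to 5 had 2.77, 3.95, 1.24, 1.77 and 2.71 CPM and stretched animals 0.503, 1.78, 0, 1.02 and 1.29 CPM. With inhibitor the values were 2.33, 1.25, 1.05, 1.39 and 1.49 CPM unstretched and 5.16, 1.83, 1.75, 1.52 and 2.04 CPM stretched. In scaled CPM each animal was thus lower with stretch without inhibitor and higher with it, at counts near the limit of 3. With inhibitor the counts of animals 1 to 5 were 5, 3, 2, 3 and 2 unstretched and 9, 3, 3, 2 and 3 stretched. Animal 2 had equal counts and animal 4 fewer with stretch, so the counts do not settle the direction with inhibitor. In the fit without a filter the difference between the stretch effects was 2.04 ± 0.85 (unadjusted p = 0.0196, adjusted p = 1).

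**Figure D3:**
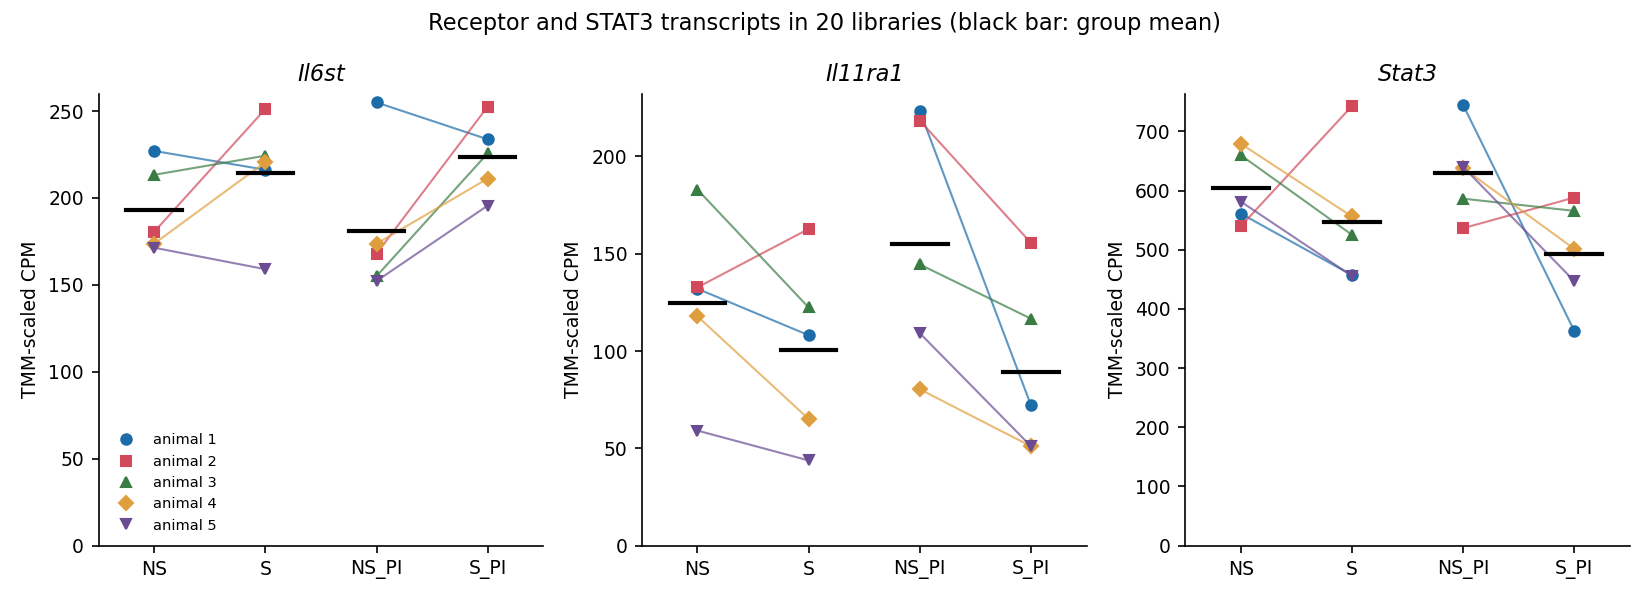
Levels of Il6st, Il11ra1 and Stat3 in each of the 20 libraries, as TMM-scaled CPM, by group, with 1 marker per animal, a line joining the unstretched and stretched library of an animal, and a black bar at the group mean. Il6st stays between 152 and 255 CPM, and Il11ra1 is lower in S_PI (51.1 to 156 CPM) than in NS_PI (80.4 to 223 CPM) for every animal.

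Stat3, the transcription factor that carries the signal to the nucleus, had the highest mean level of the 10. It stood at 561, 540, 660, 679 and 581 CPM unstretched and 457, 743, 525, 556 and 456 CPM stretched. Animal 2 was higher after stretch and the other four lower, with a change of -0.15 ± 0.15 (edgeR adjusted p = 0.486, 95% interval -0.47 to 0.16). With inhibitor it was 745, 536, 586, 638 and 640 CPM unstretched and 363, 588, 566, 502 and 447 CPM stretched. Again 4 of 5 animals were lower, and the difference of -0.37 ± 0.15 was not called (adjusted p = 0.067), though it passed with library size as the only scaling (0.0175), with upper-quartile scaling (0.0239) and without animal 2 (0.0201). Socs3, the feedback inhibitor, was listed at 0 in all 20 libraries, so these counts carry no reading of it.

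The order of group means in unstretched cells was Stat3 (604 CPM), Il6st (193), Il11ra1 (125), Il11 (35.5), Il6 (9.10), Il6r (3.37), Osmr (2.49), Lifr (0.118), and Lif and Socs3 at 0. Library ranges of Il6st and Il11ra1 overlapped, as did those of Il11ra1 and Il11, of Il11 and Il6, of Il6 and Il6r, and of Il6r and Osmr, so those neighbours are not separated by their ranges. Within animals, Il6st was above Il11ra1 and Il11 above Il6 in 5 of 5, Il11ra1 above Il11 and Il6r above Osmr in 4 of 5, and Il6 above Il6r in 3 of 5. In stretched cells the mean of Il11, at 177 CPM, lay above that of Il11ra1, at 100.4 CPM, and their ranges overlapped. Both orders are of counts, since the annotation used for counting is not given.

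The inhibitor was compared with vehicle in unstretched and in stretched cells, and the stretch effects with and without it were set against each other. None of the 5 tested genes was called in these 3 comparisons, where 0% of all tested genes was called in each. At an unadjusted p under 0.05, edgeR's quasi-likelihood test gave 0 of the 5 genes in each, and 455, 340 and 345 of all genes. DESeq2 called 4, 0 and 0 genes over the whole table. Il11 differed by -0.21 ± 0.23 between NS_PI and NS and by 0.070 ± 0.19 between S_PI and S. Il6 differed by -0.42 ± 0.35 and 0.34 ± 0.29. In neither comparison did any of the 5 have groups apart, where 0.709% and 0.216% of all tested genes did.

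The stretch effect on Il11 was 0.28 ± 0.30 larger with inhibitor on the log2 scale (95% interval -0.33 to 0.89), and that on Il6 0.76 ± 0.45 larger (-0.18 to 1.70). For Il6st, Il11ra1 and Stat3 the differences were 0.17 ± 0.18, -0.46 ± 0.29 and -0.22 ± 0.21. All 5 had an adjusted p of 0.984, and these intervals bound the differences without showing that the effects were equal.

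**Figure D4:**
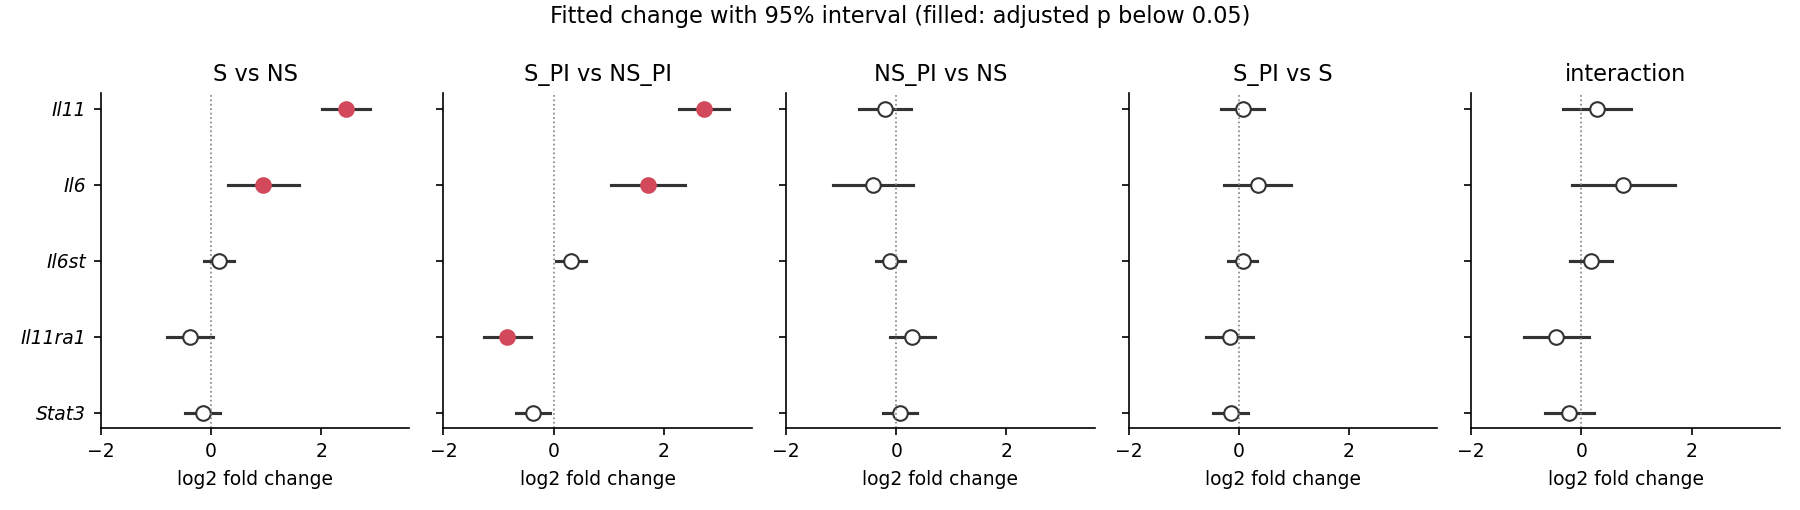
Fitted log2 change of the 5 tested genes in the comparisons made, with 95% intervals, filled where the adjusted p is under 0.05. Il11 (2.45 and 2.73) and Il6 (0.95 and 1.71) are filled in both stretch comparisons, Il11ra1 (-0.84) in the one with inhibitor, and none in the inhibitor comparisons or the interaction.

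The level of the cytokines also differed between animals. Averaged over each animal's 4 libraries, Il11 was 34.1, 61.9, 63.9, 191 and 175 CPM in animals 1 to 5 and Il11ra1 134, 167, 142, 78.6 and 65.8 CPM. The 2 animals with the most Il11 were those with the least Il11ra1. Of the variation of log2 CPM, animals accounted for 38.9% and groups for 58.5% in Il11, and for 61.7% and 28.5% in Il6. In Stat3 the shares were 13.1% and 32.2%.

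Markers of other cell types also differed between animals and groups. The summed fibroblast and smooth muscle markers averaged 6467, 3601, 4516, 10802 and 10250.1 CPM in animals 1 to 5, and the summed type I markers 3434, 4626, 3643, 1063 and 1265 CPM. The fibroblast sum was 3230 to 7509 CPM (NS), 3965 to 12435 CPM (S), 3221 to 10669.7 CPM (NS_PI) and 3987 to 14295 CPM (S_PI), and its mean was 1.56 and 1.38 times as high with stretch. Of its 7 markers 5 were tested, and 1 rose without and 2 rose with inhibitor, where 12.5% and 15.2% of all tested genes rose. Pdgfra went the other way without inhibitor, from a mean of 4.47 to 2.37 CPM, and was not called. Most of the sum was Col1a1, at 3939 of 5197 CPM on average in NS, with Acta2 at 796 CPM and Col3a1 at 442 CPM. Col1a2, Lum and Pdgfra stood at 1.38, 1.69 and 4.47 CPM there. The part of the fibroblast sum in the Il11, Il6 and Il11ra1 results was not tested.

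Epithelial sums were lower with stretch. The summed general epithelial markers stood at 0.675 and 0.655 times the unstretched mean without and with inhibitor, lower in 4 and 3 of 5 animals. Of the 5 markers, all tested, 1 fell without and 3 fell with inhibitor, where 12.4% and 15.3% of all tested genes fell. The mean of Nkx2-1 was 161 CPM in NS and 170 CPM in S, and 200 CPM in NS_PI and 160 CPM in S_PI. The summed type I markers stood at 0.798 and 0.701 times, lower in 4 and in 5 of 5 animals. Il11ra1 was lower in as many animals, but without inhibitor the exception was a different animal. The type I sum was higher with stretch in animal 3 (3670 to 3680 CPM), and Il11ra1 in animal 2 (133 to 163 CPM). Of 5 tested type I markers 1 fell without inhibitor, and 3 fell and 1 rose with it. Over all tested genes 12.4% fell without inhibitor, and 15.3% fell and 15.2% rose with it. Cav1 went against the sum, from a mean of 65.4 to 102.6 CPM without inhibitor and from 49.98 to 96.8 CPM with it. Type II markers were at 0.633 and 0.664 times, lower in 3 of 5 animals each, and 0 of the 4 tested were called. Sftpa1, 1 of them, went from a mean of 11.5 to 13.5 CPM without inhibitor. The part of these epithelial, type I and type II sums in the results for Il11ra1 and Stat3 was not tested.

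Macrophage and leukocyte markers summed to 743, 1609, 2184, 2138 and 1414 CPM on average in animals 1 to 5. By group they summed to 495 to 2072 CPM (NS), 915 to 2653 CPM (S), 588 to 1896 CPM (NS_PI) and 973 to 2369.6 CPM (S_PI). With stretch their mean was 1.47 times as high without and 1.40 times as high with inhibitor, higher in 5 of 5 animals both times. Of 6 tested markers 4 rose in each comparison, where 12.5% and 15.2% of all tested genes rose. Csf1r went from a mean of 35.2 to 32.1 CPM and, with inhibitor, from 36.7 to 36.1 CPM. Marco had 1 count in all 20 libraries. The part of these markers in the cytokine results was not tested either. Endothelial markers stayed between 0 and 3.26 CPM in sum, with 0 of 4 tested.

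Beyond the 10 genes, 68 further genes of the pathway were listed, 66 were in the table and 52 tested. Without inhibitor 11 rose and 7 fell with stretch, and with it 14 rose and 7 fell. Over all tested genes 12.5% rose and 12.4% fell without inhibitor, and 15.2% and 15.3% with it, and each list below is to be read beside these shares. In the 3 comparisons of the inhibitor none was called. In every alternative in which the gene was tested, 9 of the 18 and 8 of the 21 calls were kept, and 8 and 10 calls were lost without the animal block.

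Of 7 tested JAK kinases and other STATs, 3 fell and 0 rose without inhibitor, where 12.4% of all tested genes fell, and 4 fell and 1 rose with it, where 15.3% fell. Tyk2, a JAK-family kinase, fell by 0.78 ± 0.21 and 0.64 ± 0.21 on the log2 scale (adjusted p = 0.00924 and 0.0269). Stat2, a partner in interferon signalling, went from 22.2 to 15.1 CPM and from 25.2 to 17.3 CPM with inhibitor, and fell by 0.59 ± 0.21 and 0.54 ± 0.20 (adjusted p = 0.0401 and 0.0469). Jak2 was the gene that rose with inhibitor, by 0.93 ± 0.31 (adjusted p = 0.0251), from a mean of 5.76 to 10.9 CPM. None of the calls in this list was kept in every alternative.

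In the SHP2 branch, which links gp130 to RAS, 1 of 5 tested genes rose in both comparisons. That gene was Sos1, a RAS exchange factor, which went from 27.7 to 52.1 CPM (0.91 ± 0.16, adjusted p = 0.00038) and from 25.2 to 51.7 CPM with inhibitor (1.02 ± 0.16, adjusted p = 8.75e-05), both kept in all 13 alternatives. Of 12 tested negative regulators 2 rose without and 3 with inhibitor, and 0 fell, where 12.5% and 15.2% of all tested genes rose. Pias1, an inhibitor of STAT DNA binding, rose by 0.87 ± 0.20 without inhibitor (adjusted p = 0.0034), and the phosphatase Ptpn2 by 0.77 ± 0.18 with it (adjusted p = 0.00321). The receptor-shedding proteases Adam10 and Adam17 were not called.

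Genes known as STAT3 targets went both ways. Of 27 listed, 21 were tested, and 7 rose and 3 fell in each comparison, where 12.5% of all tested genes rose and 12.4% fell without inhibitor, and 15.2% and 15.3% with it. Myc, a growth regulator, went from 49.0 to 141 CPM without inhibitor (1.27 ± 0.32, adjusted p = 0.00727) and from 35.6 to 136 CPM with it (1.64 ± 0.33, adjusted p = 0.000969). Pim3, a survival kinase, rose from 152 to 385 CPM and from 142 to 458 CPM (1.22 ± 0.24 and 1.68 ± 0.25, adjusted p = 0.00136 and 4.99e-05). Fos, a subunit of AP-1, rose by 1.13 ± 0.28 and 1.59 ± 0.29 (adjusted p = 0.00565 and 0.000331). Its unstretched libraries had 7 to 14 counts (NS) and 5 to 10 (NS_PI). Fos thus passed the low-count filter only with its stretched libraries included, and its rise is given as a description.

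Cebpd, a transcription factor of the acute-phase response, fell from 60.0 to 13.4 CPM and from 55.5 to 12.1 CPM (-2.13 ± 0.16 and -2.20 ± 0.17, adjusted p = 4.11e-08 and 2.04e-08). Bcl3, a partner of NF-kB, fell from 42.4 to 11.2 CPM without inhibitor (-1.87 ± 0.24, adjusted p = 1.91e-05). Fgg, a fibrinogen chain, fell from 24.1 to 14.0 CPM (-0.79 ± 0.19, adjusted p = 0.00548). The calls named for Myc, Pim3 and Cebpd, and those of Bcl3 and Fgg without inhibitor, were kept in all 13 alternatives, and those of Fos in the 12 in which it was tested. The list's median change was 0.21 and 0.30, beside -0.013 and -0.020 over all tested genes. Junb, Icam1 and Ccnd1, also in the list, were not called.

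**Figure D5:**
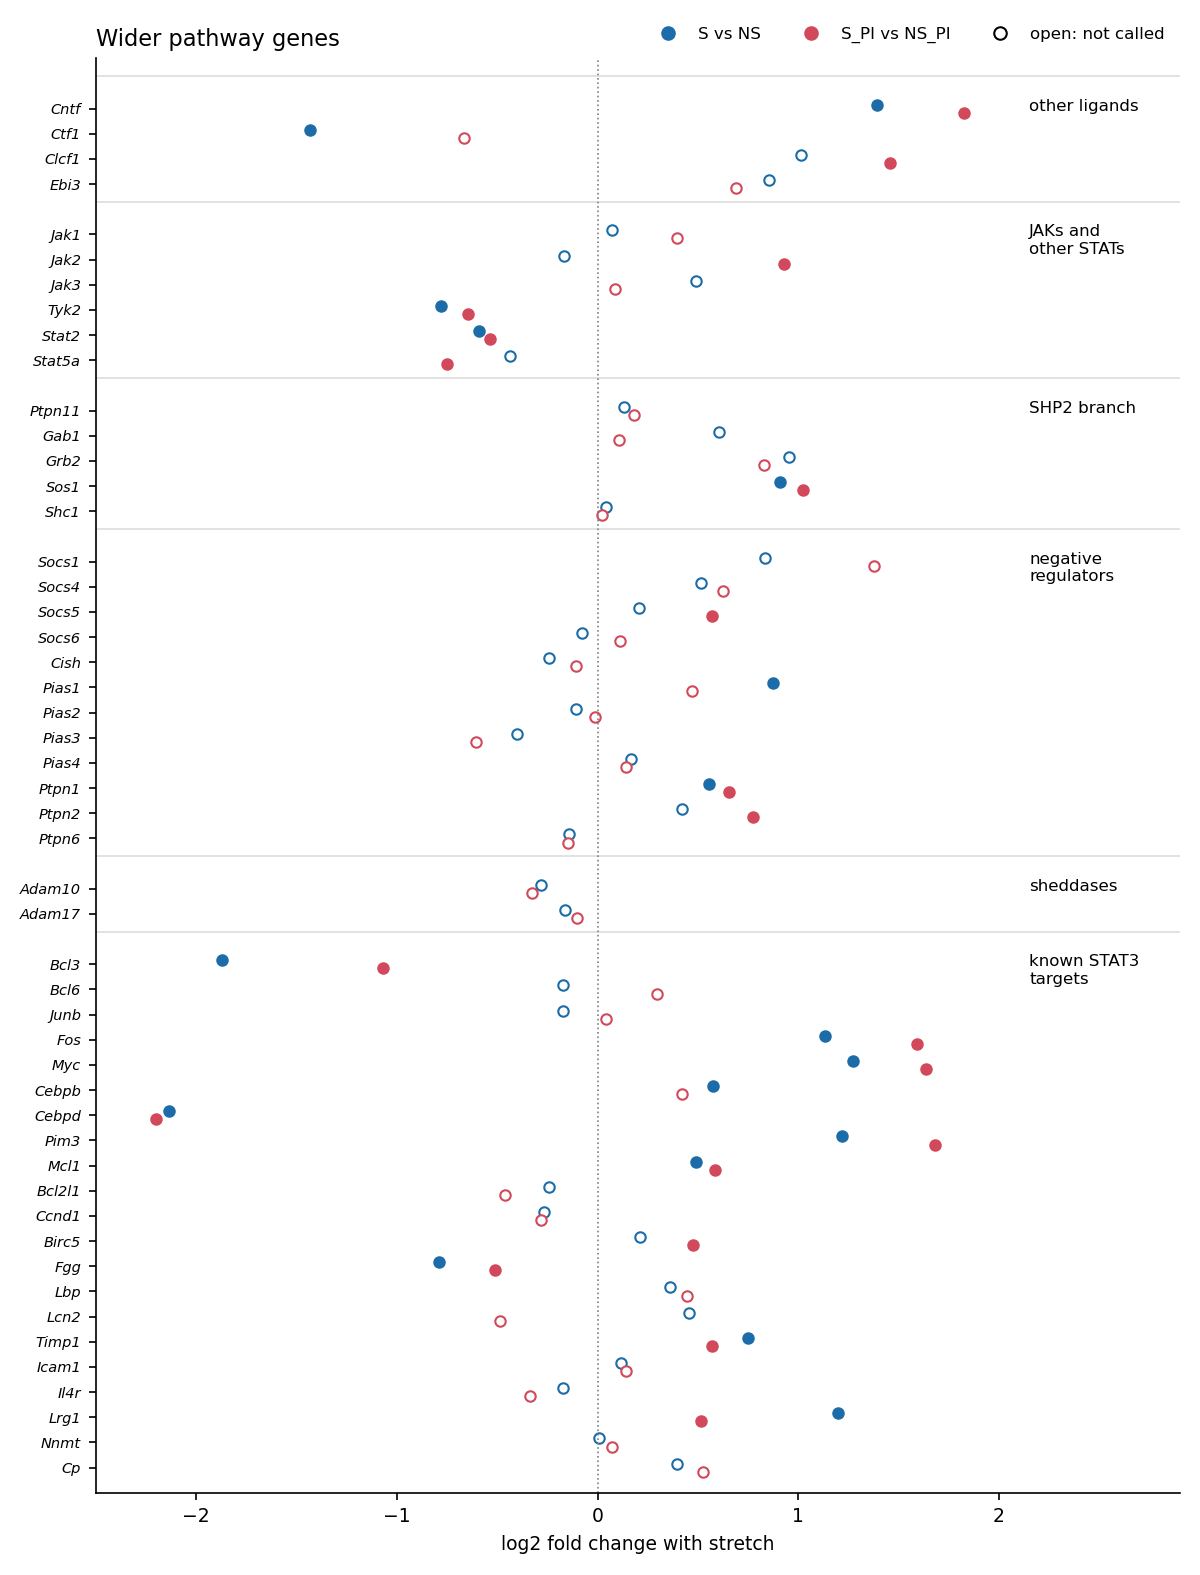
Log2 change with stretch of wider pathway genes, grouped by role, without inhibitor (blue) and with it (red), filled where called at an adjusted p under 0.05 and open where not. Cebpd (-2.13 and -2.20) lies farthest to the left, and Cntf, Pim3, Myc and Fos lie to the right in both comparisons.

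The tested genes whose pattern was most like that of Il11 over the 20 libraries, after each animal's mean was subtracted, were Csrnp1 (Pearson's r = 0.984), Slc7a6os (0.974) and Srsf6 (0.972), among 8319 genes. For Il6st they were Htt (0.907) and Snx15 (0.896). For Stat3 they were Cdh1 (0.897), the E-cadherin gene of epithelial junctions, with Cx3cl1 (0.892) and St14 (0.890). The libraries share animals and the stretch contrast, so these values are descriptions.

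In the authors' deposited table, which does not name its groups, Il11 (ENSRNOG00000017386) has a log2 value of -2.27 with a standard error of 0.21 and an adjusted p of 2.55e-23. Across genes that table's signs run opposite to stretched over unstretched. The authors' deposited table gives Il6 (ENSRNOG00000010278) -0.75 with a standard error of 0.32 and an adjusted p of 0.113, so Il6 passes 0.05 in the fit made here and not in that table. In the authors' deposited table Il6st, Il11ra1 and Stat3 have -0.16, 0.30 and 0.12, and Socs3 is listed at 0.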

How the data were processed

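RNA from 20 libraries was read near the 3′ end with QuantSeq FWD, per the labels' protocols. The authors aligned reads to rn6 with STAR, counted genes with HTSeq and used DESeq2, per the submitters' processing notes; the sources used here give neither versions nor the gene annotation or strand setting. What the authors deposited are raw counts per gene. The deposited DESeq2 table, named as controlling for rat, lists per the file headers a log2 fold change, its standard error, a p-value, an adjusted p-value, the Wald score and the mean normalized signal over libraries.

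Here the 5 summary rows of the count table were left out (reads in no gene made up 16.2 to 24.5% and reads not uniquely placed 35.5 to 57.7% of a library). edgeR 4.0.16 (R 4.3.3, limma 3.58.1) filtered genes with filterByExpr, scaled by TMM and fitted group plus animal over all 20 libraries with 12 residual degrees of freedom; the steps were tested on simulated data. With the animal as a block, the p-values rest on how far the group differences vary from animal to animal. This holds as far as the numbers mark animals, and the spread is partly shared across genes. The pairing rests on the data: libraries of the same number correlated in their deviations from the group means (lowest r 0.316, median 0.476, against -0.187 for different numbers), and 20 of 20 libraries were closest to one of their own number. That check and the name of the deposited table led to the animal block. Alternatives were DESeq2 1.42.0, other scalings and filters, no block, only the compared groups, and leaving out each animal. Figures used matplotlib 3.10.9.

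Named were all 10 genes, called genes of the wider lists and the 3 closest patterns to Il11, Il6st and Stat3; some of these genes are not reported here. Other list genes named as uncalled were chosen after their values were seen. The members and lists were chosen with earlier results of these data known. Genes were matched by symbol, and all 10 members matched the RefSeq gene table, whose coordinates are not used since its build is not rn6.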

Additional observations from a re-analysis of the deposited data

Results flagged for a closer look

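In 28 groups of 5 libraries, for the 7 genes with enough counts, the highest or lowest library was compared with the rest, and chance alone marks about 1 group in 20. Il6 in stretched animal 5 was 37.3 CPM, with the next library at 14.2 CPM, a gap of 0.730 of the group's range. Il6st in NS_PI animal 1 was 255 CPM, with the next at 174 CPM (0.791 of the range). Osmr in S_PI animal 1 was 5.16 CPM, from 9 counts, with the next at 2.04 CPM (0.857 of the range).

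In scaled CPM, Osmr went opposite ways with stretch with and without inhibitor in every animal, at 0 to 9 counts per library. Without inhibitor all 5 animals were lower with stretch, by up to -1.27 on the log2 scale, and with inhibitor all 5 were higher. With inhibitor, however, the counts of animal 2 were equal at 3, and those of animal 4 went from 3 to 2 with stretch. Osmr was below the filter, so the difference was not tested in the fit reported; in the fit without a filter its adjusted p was 1.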

How the results depend on the processing

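Over 319 values of the 5 genes under alternatives, 303 kept their direction and side of the threshold, 5 passed it newly, 7 no longer passed it and 4 reversed. The Il11 rise was called in every alternative. Without the animal block, which ignores the pairing, the genes called fell from 2075 to 818 (S vs NS) and from 2534 to 1229 (S_PI vs NS_PI), and members called to 1 in each. With only the compared groups fitted, S vs NS gave 1048 genes and 1 member. Leaving out 1 animal gave 1418 to 1784 genes and 1 to 2 members for S vs NS, and 1839 to 2453 genes for S_PI vs NS_PI. For NS_PI vs NS, 0 genes became 4 with DESeq2, 4 without a filter, 27 with only the compared groups and 0 to 3 without 1 animal. Without 1 animal, 4 log2 changes reversed: Il6 in NS_PI vs NS without animal 5 (0.089; range -0.75 to 0.089), Stat3 there without animal 1 (-0.018; range -0.018 to 0.13), and Il11 in S_PI vs S without animals 1 and 4 (-0.13 and -0.034; range -0.13 to 0.25). None was called, and the cause was not tested. Scaled by library size alone, the median gene shifted by -0.12 in S vs NS, and calls split into 722 higher and 1425 lower (957 and 1677 with inhibitor); upper-quartile scaling gave 854 and 1233 (1030 and 1612). Counts limit Il6, Il6r, Osmr, Lif and Lifr.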
